A study of Mus musculus with 18 samples.

Results

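The genes described are 10 genes by which mural cells, the pericytes and smooth muscle cells of blood vessel walls, are commonly recognised. They were chosen by mouse gene symbol, matched through the Entrez Gene identifier to rows of the count tables, and make up 10 of 22792 genes. All 10 had enough counts to be among the 15282 genes tested. Pdgfrb, Rgs5, Cspg4, Notch3, Mcam and Kcnj8 are the 6 pericyte genes, and Acta2, Tagln, Myh11 and Cnn1 the 4 smooth muscle genes. They were measured in 18 tumors of the murine triple-negative mammary carcinoma line 4T1, grown from 300000 cells in the mammary fat pad of female Balb/c mice with an intact immune system, injected at 8 weeks of age. The 4 groups were Vehicle (n = 5), PI3Ki (the pan-PI3K inhibitor CLR457, 20 mg/kg, n = 4), SHP2i (the allosteric SHP2 inhibitor SHP099, 100 mg/kg, n = 4) and Combo (both compounds, n = 5). Dosing by gavage started on day 7 and tumors were taken on day 21, 1 tumor per mouse. Every group carries the same cell line, so differences between groups are differences between treated mice within 1 tumor model. The stated question was the part of PI3K and SHP2 signalling in primary tumors.

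Pericytes sit on the outside of capillaries, share their basement membrane with the endothelium and are held there by PDGF-B from endothelial cells, which acts on the receptor PDGFRβ (Pdgfrb). Larger vessels carry smooth muscle cells instead, with a contractile apparatus of smooth muscle actin (Acta2), myosin (Myh11) and the actin-binding proteins SM22 (Tagln) and calponin (Cnn1). Tumor vessels are known for loosely attached and uneven mural cells, and several of these genes are also made by other cells. Fibroblasts make Pdgfrb and, when activated, Acta2 and Tagln, endothelial cells make Mcam, and myoepithelial cells of the mammary gland make Acta2, Myh11 and Cnn1.

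Libraries held 21.16 M to 26.62 M counts each (median 23.52 M). Levels are counts per M counts (CPM) after TMM scaling, a correction for unequal library composition. With these totals Cnn1, the member with the fewest reads, had between 10 and 211 counts per tumor. In bulk tumor RNA, fewer cells of a type and less RNA per cell cannot be told apart. PI3Ki replicate 2 stood apart from the other PI3Ki tumors for the smooth muscle genes, with a sum of 387 CPM over the 4 genes against 90.5, 161 and 127 CPM in replicates 1, 3 and 5.

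The members differed widely in level. Per kb of exon (reads per kb per M counts, RPKM), Mcam was highest in Vehicle tumors at 38.1 ± 3.27 (SD, n = 5), followed by Pdgfrb at 32.3 ± 5.27, Tagln at 28.2 ± 8.37 and Acta2 at 25.4 ± 4.25. Neighbours among these 4 overlapped in range. Rgs5 came next at 9.29 ± 1.47 RPKM and overlapped neither Acta2 above it nor Kcnj8 below it, which stood at 2.34 ± 0.397 RPKM. Notch3 had 1.89 ± 0.457 RPKM, Myh11 1.02 ± 0.125, Cnn1 0.868 ± 0.306 and Cspg4 0.471 ± 0.172. Notch3 overlapped Kcnj8 but not, by a narrow margin, Myh11, and the last 3 overlapped their neighbours. All members were therefore detected in Vehicle tumors, with the smooth muscle genes Myh11 and Cnn1 and the pericyte gene Cspg4 at the low end. Other cells make several of these genes, so their detection does not by itself show both mural cell types.

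**Figure D1:**
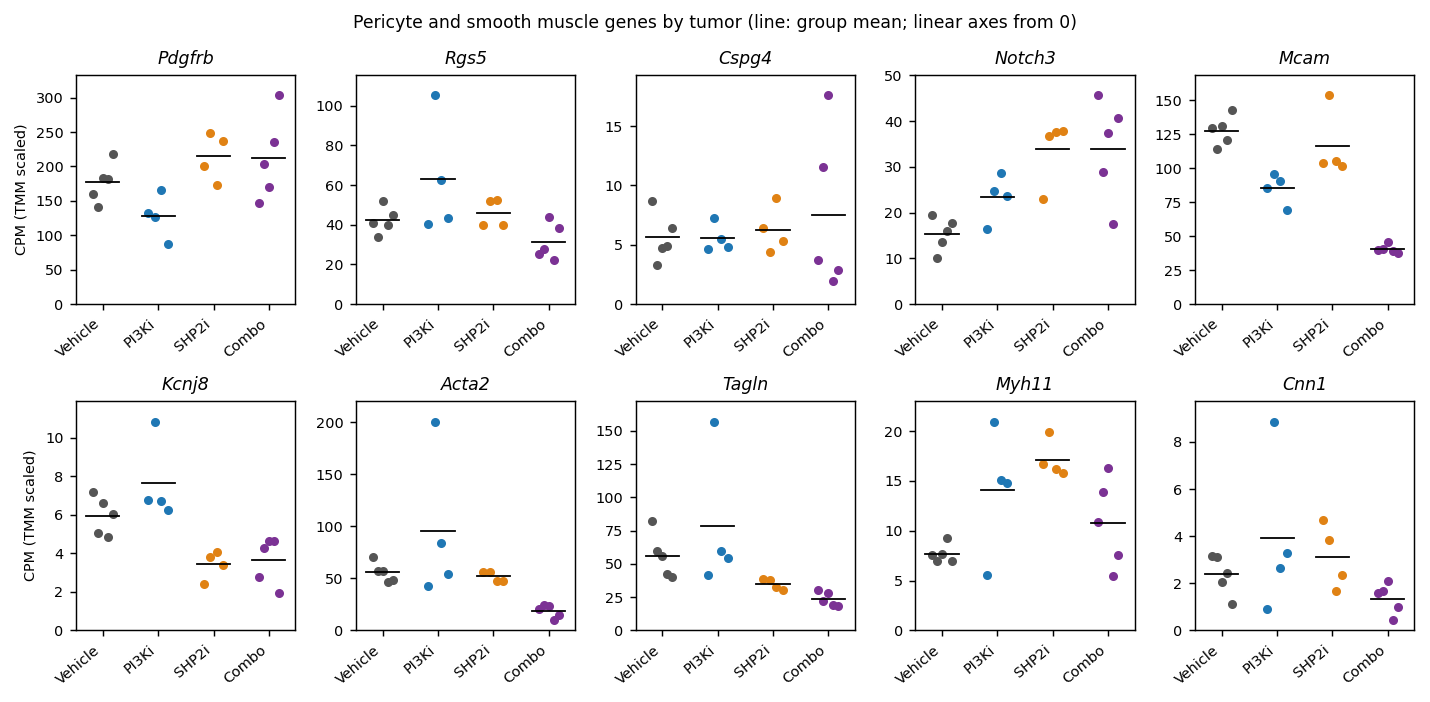
Level of each of the 10 genes in each tumor, in CPM on linear axes that start at 0, with 1 point per tumor and a line at the group mean. Mcam in Combo lies between 37.5 and 45.7 CPM, under every other tumor, and PI3Ki replicate 2 is the single high point for Acta2 (200.3 CPM) and Tagln (157 CPM).

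Against Vehicle, the combination lowered Mcam, Acta2, Tagln and Kcnj8 and raised Notch3, so the members did not move as 1 block. The test was edgeR's quasi-likelihood test over all 18 tumors, adjusted by Benjamini-Hochberg over all genes tested, and a member was called changed at an adjusted p under 0.05. In Combo 1 member was higher and 4 were lower, and the 4 lower ones did not overlap Vehicle. Of all genes tested, 23.9% were called higher and 19.7% lower in Combo, and 13.4% lay below and 15.5% above Vehicle without overlap. The median log2 fold change of the 10 members was -0.56 beside 0.02 over all genes. SHP2i raised Notch3 and Myh11, and 2 members higher and 0 lower compare with 5.05% and 6.54% of all genes (2 were lower at an unadjusted p under 0.05, 1 by DESeq2 and 3 by voom). Both lay above Vehicle without overlap, as 8.6% of all genes did, and 2 members (Kcnj8 and Tagln) lay below Vehicle without overlap, as 10.5% of all genes did, with the test's threshold missed. In PI3Ki only Mcam was called, 1 member lower and 0 higher where 2.42% and 2.69% of all genes were called (4 were higher at an unadjusted p under 0.05 and 0 by DESeq2 or voom), and Mcam was also the 1 member below Vehicle without overlap (5.36% of all genes, with 5.16% and 0 members above it). The median of the members was 0.14 in SHP2i and 0.53 in PI3Ki, beside 0.02 and 0.01 over all genes. These 3 comparisons share the 5 Vehicle tumors.

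With an absolute log2 fold change over 1 required as well, fewer members were called. In Combo against Vehicle 1 was higher (Notch3) and 3 were lower (Mcam, Acta2 and Tagln), where 3.99% and 6.86% of all genes were called. SHP2i kept Notch3 and Myh11 as 2 higher members and had 0 lower ones, beside 0.641% and 3.1% of all genes, and PI3Ki had 0 either way, beside 1.43% higher and 0.321% lower. At this limit Combo was lower than PI3Ki for 5 members and higher for 0 (8.36% and 2.74% of all genes), and lower than SHP2i for 2 and higher for 0 (3.13% and 1.44%). SHP2i was lower than PI3Ki for 2 and higher for 0 (5.24% and 1.39%), and the interaction was called lower for 1 and higher for 0 (1.36% and 0.308%).

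**Figure D2:**
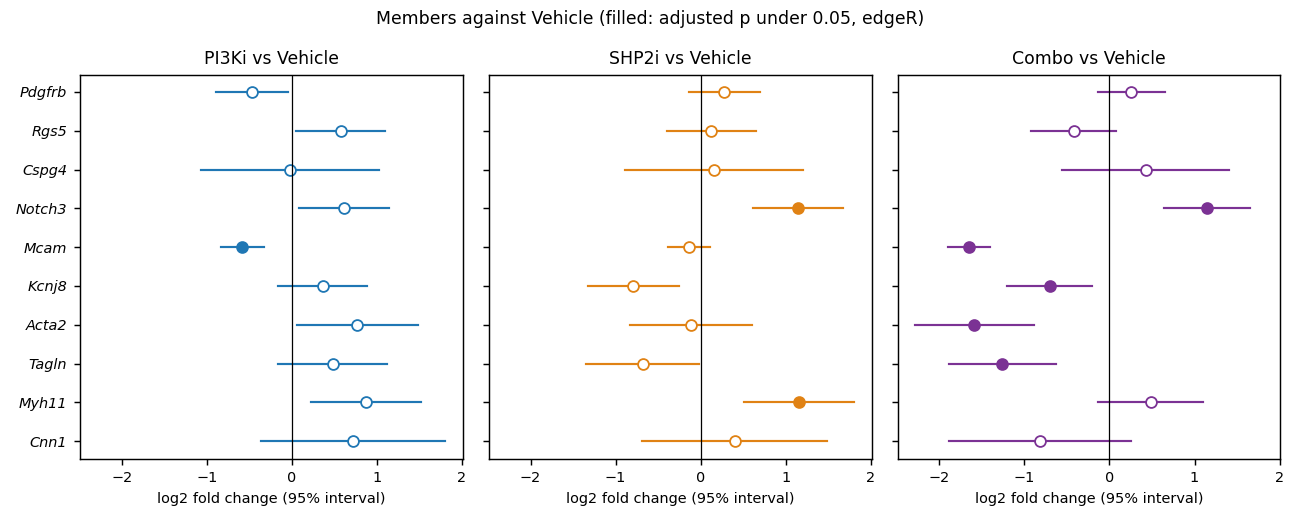
Log2 fold change of each member against Vehicle in the 3 treatments, with unadjusted 95% intervals from the model and filled points where the adjusted p of edgeR was under 0.05. Combo has 5 filled points, SHP2i 2 and PI3Ki 1, and Notch3 is the single filled point on the higher side in Combo.

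Pdgfrb (Entrez 18596, GRCm38.p6 chromosome 18, 61045127 to 61085067) encodes the receptor that recruits pericytes. Its level was 160.2, 141.5, 183, 182 and 219 CPM in Vehicle replicates 1 to 5 and 133, 126, 165 and 87.2 CPM in PI3Ki replicates 1, 2, 3 and 5. It was 200.5, 249, 173 and 236.5 CPM in SHP2i replicates 2 to 5 and 147, 204, 169.5, 235 and 303 CPM in Combo replicates 1 to 5. The 3 treated groups all overlapped Vehicle, with PI3Ki replicates 1, 2 and 5 below and SHP2i replicates 3 and 5 and Combo replicates 4 and 5 above the Vehicle range. The log2 fold change against Vehicle was -0.47 in PI3Ki (edgeR, adjusted p = 0.206), 0.28 in SHP2i (adjusted p = 0.374, 95% interval -0.14 to 0.70) and 0.26 in Combo (adjusted p = 0.285, 95% interval -0.14 to 0.66), and none passed the threshold. With voom the PI3Ki value was called (-0.575, adjusted p = 0.0321). Between the treatments it did: Pdgfrb was higher than in PI3Ki by 0.75 in SHP2i (SE 0.213, adjusted p = 0.0172, no overlap) and by 0.73 in Combo (SE 0.204, adjusted p = 0.00969, with overlap). The SHP2i call was lost without PI3Ki replicate 5 (0.59, adjusted p = 0.0561) or without SHP2i replicate 3 (0.66, adjusted p = 0.0523).

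Notch3 (Entrez 18131, chromosome 17, 32120820 to 32166896, minus strand, overlapping Gm17276 on the other strand) is the Notch receptor of mural cells and is needed for arterial smooth muscle to mature. Vehicle tumors had 19.4, 9.98, 13.5, 16.0 and 17.8 CPM. PI3Ki tumors had 16.3, 24.8, 28.7 and 23.6 CPM, SHP2i tumors 23.0, 36.7, 37.7 and 37.9 CPM, and Combo tumors 45.6, 28.8, 37.3, 17.4 and 40.7 CPM. Every SHP2i tumor was above every Vehicle tumor, and so was every Combo tumor except replicate 4. Notch3 was higher than in Vehicle by 1.14 in SHP2i (log2, SE 0.25, edgeR, adjusted p = 0.00721) and by 1.15 in Combo (SE 0.239, adjusted p = 0.00103), about 2.21-fold and 2.22-fold. In PI3Ki the difference was 0.61 (adjusted p = 0.184). Combo and SHP2i differed by 0.01 (95% interval -0.52 to 0.53), and the interaction of both inhibitors, the departure from adding their log2 effects, was -0.60 (adjusted p = 0.373).

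Mcam (Entrez 84004, chromosome 9, 44134658 to 44142727, overlapping Gm10687 on the other strand) encodes CD146, an adhesion molecule that pericytes share with endothelial cells. Vehicle tumors had 129.7, 114, 131, 121 and 143 CPM and PI3Ki tumors 85.8, 95.7, 90.6 and 69.1 CPM. SHP2i tumors had 104.0, 154, 106 and 101 CPM, and Combo tumors 39.9, 40.6, 45.7, 39.4 and 37.5 CPM. The Combo tumors lay within a narrow band under all others, PI3Ki tumors lay under Vehicle, and SHP2i tumors overlapped Vehicle through replicate 3 alone. SHP2i replicates 2, 4 and 5 were below every Vehicle tumor. Mcam fell by 0.58 on the log2 scale in PI3Ki (SE 0.1205, edgeR, adjusted p = 0.0087) and by 1.65 in Combo (SE 0.116, adjusted p = 4.67e-08), to 0.668 and 0.318 of the Vehicle level. In SHP2i the difference was -0.14 (edgeR, adjusted p = 0.472), and it was called by voom (-0.247, adjusted p = 0.0405). The interaction was -0.93 (SE 0.169, adjusted p = 0.00918), so Mcam in Combo was below the level that adding both single effects gives.

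Rgs5 and Kcnj8 are pericyte genes of signalling and excitability. Rgs5 (Entrez 19737, chromosome 1, 169655501 to 169695813), a regulator of G protein signalling, had 40.7, 33.9, 51.9, 39.8 and 44.9 CPM in Vehicle and 25.5, 27.7, 43.9, 22.4 and 38.2 CPM in Combo. It had 40.3, 105, 62.6 and 43.2 CPM in PI3Ki and 39.6, 51.8, 52.3 and 40.1 CPM in SHP2i. No comparison with Vehicle passed the threshold, with log2 differences of 0.57 in PI3Ki, 0.12 in SHP2i and -0.42 in Combo (edgeR, adjusted p = 0.207, 0.778 and 0.161). The Combo value was called by voom (-0.58, adjusted p = 0.0289) and without Combo replicates 3 and 4 and PI3Ki replicate 2 (-0.51, adjusted p = 0.0323), and Combo against SHP2i, at -0.54 over all tumors (adjusted p = 0.124), was called without PI3Ki replicate 2 (-0.56, adjusted p = 0.0457). Combo was lower than PI3Ki by -0.99 on the log2 scale (SE 0.248, adjusted p = 0.00479) and by -0.66 without PI3Ki replicate 2 (adjusted p = 0.0267).

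Kcnj8 (Entrez 16523, chromosome 6, 142564837 to 142571614, minus strand) encodes Kir6.1, the pore of the vascular ATP-sensitive potassium channel. Vehicle tumors had 7.20, 5.05, 6.63, 4.84 and 6.06 CPM, and PI3Ki tumors 6.79, 10.8, 6.73 and 6.24 CPM. SHP2i tumors had 2.41, 3.83, 4.08 and 3.40 CPM, and Combo tumors 2.76, 4.29, 4.65, 4.62 and 1.95 CPM. All tumors that received SHP099 were below all tumors that did not. Kcnj8 fell by 0.70 on the log2 scale in Combo (SE 0.237, edgeR, adjusted p = 0.0237), while -0.79 in SHP2i just missed the threshold (SE 0.255, adjusted p = 0.0517). Both are near the limit: the Combo call was lost without Vehicle replicate 1 or 3 or Combo replicate 1 or 5 (adjusted p = 0.0562, 0.0508, 0.061 and 0.0556), and the SHP2i value was called without PI3Ki replicate 2 (adjusted p = 0.0351) and by DESeq2 (adjusted p = 0.0203). Combo and SHP2i differed by 0.09 (95% interval -0.44 to 0.63), and Kcnj8 was lower than in PI3Ki by -1.15 in SHP2i (adjusted p = 0.00517) and by -1.06 in Combo (adjusted p = 0.00309).

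Cspg4 (Entrez 121021, chromosome 9, 56865104 to 56899870) encodes the proteoglycan NG2 and had the widest spread relative to its mean among the members in Combo. Combo tumors spread from 1.94 to 17.6 CPM, with 11.6 and 17.6 CPM in replicates 2 and 3 and 3.68, 1.94 and 2.83 CPM in replicates 1, 4 and 5. Sums of 6 adipocyte markers were 793 and 1327 CPM in Combo replicates 2 and 3, and 408, 310 and 457 CPM in replicates 1, 4 and 5. These sums were 490 to 684.7 CPM in SHP2i and 224 to 529 CPM in Vehicle. A link between adipocyte RNA and Cspg4 was not tested. Vehicle tumors ranged from 3.33 to 8.72 CPM, PI3Ki tumors from 4.63 to 7.26 and SHP2i tumors from 4.38 to 8.91. No comparison was called. The Combo difference of 0.42 (edgeR, adjusted p = 0.489, 95% interval -0.56 to 1.41) became -0.17 without Combo replicate 3.

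Acta2 (Entrez 11475, chromosome 19, 34240336 to 34255585, minus strand) encodes smooth muscle α-actin, a classical target of serum response factor (SRF), which binds the CArG box, a motif with 2 C at one end, 2 G at the other and 6 A or T between. RefSeq windows of 300 bases, from 250 before to 50 after the start site (GRCm38.p6), were matched for 7 of the 10 members, all but Pdgfrb, Tagln and Myh11. On either strand, 0 of these 7 held a strict CArG box, which 1.63% of 32851 windows held. With up to 1 G or C allowed among the 6 inner bases, Acta2 held 2 matches and the other 6 members 0, where 9.98% of windows held at least 1 and 0.822% at least 2. The 30-base stretches around both Acta2 matches are shown on the strand of the gene with the match in capitals. They lie at chr19:34255438-34255467 and chr19:34255388-34255417, with the matches 84 to 75 and 34 to 25 bases before the start site of the window. The gene span given above begins further upstream than that start site. Both stretches lie inside this span and inside an exon annotated by GENCODE.
Acta2 upstream match: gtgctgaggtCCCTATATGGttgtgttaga
Acta2 downstream match: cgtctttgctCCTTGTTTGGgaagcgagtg
A match is a description of these letters, and binding was not measured.

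Acta2 itself had 70.5, 56.6, 56.6, 46.8 and 48.6 CPM in Vehicle and 20.3, 23.9, 23.4, 10.3 and 14.8 CPM in Combo. PI3Ki tumors had 42.4, 200.3, 84.0 and 53.9 CPM and SHP2i tumors 56.1, 56.3, 47.2 and 47.3 CPM. Every Combo tumor was below every other tumor, whereas both single treatments overlapped Vehicle. Acta2 fell by 1.59 on the log2 scale in Combo against Vehicle (SE 0.332, edgeR, adjusted p = 0.00108), to 0.333 of the Vehicle level, and by 1.48 against SHP2i (SE 0.345, adjusted p = 0.00655). The single treatments gave 0.77 in PI3Ki (adjusted p = 0.216) and -0.11 in SHP2i (adjusted p = 0.86), and the PI3Ki value was 0.11 without replicate 2. The interaction was -2.25 (SE 0.482, adjusted p = 0.0218) and -1.61 without PI3Ki replicate 2 (adjusted p = 0.027). The actins are near-identical in protein sequence, and whether any reads were assigned to the wrong actin gene was not tested. Skeletal actin Acta1 ranged from 123 to 437 CPM in PI3Ki, from 0.205 to 26.6 in Vehicle and from 0.131 to 11.7 in Combo, enteric actin Actg2 from 0.173 to 0.653 in Combo and from 1.97 to 3.00 in Vehicle, and cardiac actin Actc1 stayed under 1.05 CPM in every tumor.

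Tagln (Entrez 21345, chromosome 9, 45929628 to 45936058, minus strand, overlapping Gm48529 and Pcsk7 on the other strand) encodes SM22, which binds actin filaments. Vehicle tumors had 81.9, 59.4, 56.2, 42.5 and 40.5 CPM and PI3Ki tumors 41.65, 157, 59.3 and 54.7 CPM. SHP2i tumors had 38.7, 38.0, 32.5 and 30.5 CPM, and Combo tumors 30.3, 21.8, 28.1, 18.8 and 18.1 CPM. In the measured tumors SHP2i lay below Vehicle and Combo below SHP2i without overlap, both by a narrow margin, while PI3Ki overlapped Vehicle. Tagln fell by 1.26 on the log2 scale in Combo against Vehicle (SE 0.297, edgeR, adjusted p = 0.0027). The SHP2i difference of -0.68 missed the threshold over all tumors (adjusted p = 0.156) and passed without PI3Ki replicate 2 (adjusted p = 0.0313), and the difference between Combo and SHP2i of -0.57 likewise (adjusted p = 0.195, and 0.0435 without that tumor).

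Myh11 (Entrez 17880, chromosome 16, 14194527 to 14292188, minus strand), the smooth muscle myosin heavy chain a late marker of contractile smooth muscle, was higher in SHP2i, where Acta2 and Tagln stood at -0.11 and -0.68 (log2) without passing the threshold. Vehicle tumors had 7.62, 7.00, 7.67, 9.31 and 6.98 CPM and SHP2i tumors 16.7, 19.9, 16.2 and 15.8 CPM. PI3Ki tumors had 5.55, 20.95, 15.1 and 14.8 CPM, and Combo tumors 10.85, 13.9, 16.3, 5.44 and 7.53 CPM. The SHP2i tumors were all above Vehicle, 3 of 4 PI3Ki tumors were too, and the Combo tumors lay below, in and above the Vehicle range. Myh11 was higher in SHP2i by 1.15 (log2, SE 0.307, edgeR, adjusted p = 0.0226), or 2.22-fold, a call lost without Vehicle replicate 2 or SHP2i replicate 3 (adjusted p = 0.0623 and 0.0586). The differences of 0.87 in PI3Ki (adjusted p = 0.117) and 0.48 in Combo (adjusted p = 0.194) were not called, the former except without PI3Ki replicate 1 (1.14, adjusted p = 0.0222). Its interaction was -1.54 (adjusted p = 0.0717), and it was called by DESeq2 (adjusted p = 0.0158) and without PI3Ki replicate 1 or Combo replicate 3 (adjusted p = 0.0168 and 0.0344).

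Cnn1 (Entrez 12797, chromosome 9, 22099221 to 22109221) encodes calponin, a brake on the smooth muscle myosin motor. Vehicle tumors had 3.14, 3.13, 2.05, 2.42 and 1.13 CPM, and Combo tumors 1.58, 1.65, 2.08, 0.432 and 0.974 CPM. PI3Ki tumors had 0.918, 8.86, 2.65 and 3.30 CPM, and SHP2i tumors 4.67, 3.83, 1.67 and 2.37 CPM. All groups overlapped Vehicle, and no comparison with Vehicle was called, with -0.82 in Combo (edgeR, adjusted p = 0.203, 95% interval -1.88 to 0.25). Combo was lower than PI3Ki by -1.54 (adjusted p = 0.0284), and by -0.79 with the call lost without PI3Ki replicate 2 (adjusted p = 0.233). The call was also lost without Combo replicate 4 or 5 (adjusted p = 0.0601 and 0.0629).

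Combo differed from PI3Ki in 7 members and from SHP2i in 2, and without PI3Ki replicate 2 in 6 and 4 (both comparisons share the Combo tumors). Against PI3Ki, Combo was lower for 6 members (Rgs5, Mcam, Kcnj8, Acta2, Tagln and Cnn1) and higher for 1 (Pdgfrb), where 17.8% and 19.9% of all genes were called, and Mcam, Kcnj8, Acta2 and Tagln did not overlap (11.2% of all genes were lower and 13.2% higher without overlap). Acta2 fell most, by 2.36 on the log2 scale (edgeR, adjusted p = 8.51e-05), and by 1.73 without PI3Ki replicate 2 (adjusted p = 8.34e-05). Tagln fell by 1.74 (adjusted p = 0.000435), and by 1.18 without that tumor (adjusted p = 0.000843). Against SHP2i, Combo was lower for 2 members, Mcam by 1.52 (adjusted p = 5.64e-06) and Acta2, and higher for 0 (also at an unadjusted p under 0.05, by DESeq2 and by voom), beside 10.3% and 11.8% of all genes. Below SHP2i without overlap lay Mcam, Acta2 and Tagln, 3 members, and above it 0, beside 7.26% and 9.86% of all genes. SHP2i against PI3Ki had 2 members higher (Pdgfrb and Mcam) and 2 lower (Kcnj8 and Tagln), beside 11.6% and 12.8% of all genes, and all 4 did not overlap (11.9% of all genes above and 12.9% below). Of these, Tagln was not called without PI3Ki replicate 2 (-0.59, adjusted p = 0.0844), and Mcam (0.45, adjusted p = 0.0169) not without PI3Ki replicate 5 or SHP2i replicate 3 (adjusted p = 0.0653 and 0.0869). The interaction was called for 2 members, Mcam and Acta2, both lower, where 1.61% of all genes were called lower and 0.864% higher, and the median of the members was -0.99 beside 0.02 over all genes.

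Because mural cells cover endothelium, each member was also set against the mean log2 CPM of 20 endothelial genes in the same tumor. In Combo 16 of these 20 genes were lower and 0 higher, beside 19.7% and 23.9% of all genes. Their mean log2 CPM stood at -1.08 to -0.769 relative to the Vehicle mean. Relative to the endothelial mean and to Vehicle, Pdgfrb was 1.13 ± 0.448 (log2, SD, n = 5) in Combo, from 0.542 to 1.56, above the Vehicle tumors at -0.174 to 0.257. Notch3 was 2.01 ± 0.425 in Combo, and Myh11 1.29 ± 0.624, and both lay above their Vehicle range in all 5 tumors. Notch3 also did so in every PI3Ki and SHP2i tumor (0.628 to 1.199 and 0.751 to 1.403), Myh11 in every SHP2i tumor (0.979 to 1.24), and Rgs5 and Kcnj8 in every PI3Ki tumor (0.372 to 1.28 and 0.407 to 0.825). In Combo, Mcam at -0.74 ± 0.181 stayed below its Vehicle range, whereas Acta2 at -0.73 ± 0.495 and Tagln at -0.33 ± 0.309 partly overlapped theirs. Mcam also lay below its Vehicle range in every PI3Ki tumor (-0.555 to -0.07) and every SHP2i tumor (-0.263 to -0.115). So did Kcnj8 in every SHP2i tumor (-1.128 to -0.453). Kcnj8 was -0.82 ± 0.301 in SHP2i and 0.16 ± 0.658 in Combo on this scale, while its CPM in both groups overlapped, and Rgs5 was 0.46 ± 0.337 in Combo. These are descriptions without a test, and the endothelial genes were themselves changed by the treatment. Relative to Vehicle, the endothelial mean was -0.907 (log2) in Combo, -0.259 in PI3Ki and 0.031 in SHP2i. A gene of unchanged CPM therefore moves on this scale by the same size in the other direction. How many of all genes lie above Vehicle on this scale was not counted.

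**Figure D3:**
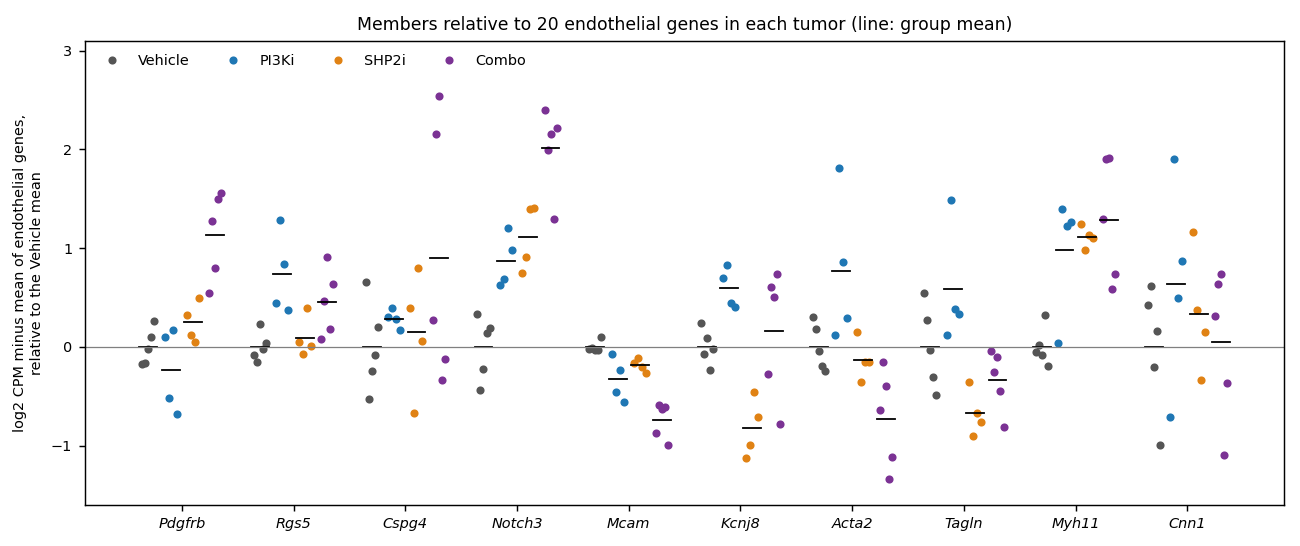
Log2 CPM of each member minus the mean log2 CPM of 20 endothelial genes in the same tumor, relative to the Vehicle mean, with 1 point per tumor and a line at the group mean. In Combo, Pdgfrb (mean 1.13), Notch3 (2.01) and Myh11 (1.29) lie above 0 in every tumor, and Mcam (-0.74), Acta2 (-0.73) and Tagln (-0.33) lie below 0 in every tumor. The endothelial mean itself was -0.907 in Combo, which lifts a gene of unchanged CPM by as much.

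Ratios between members also differed within single tumors. The log2 ratio of Notch3 to Mcam was -3.09 ± 0.304 in Vehicle, -1.89 ± 0.377 in PI3Ki, -1.79 ± 0.389 in SHP2i and -0.33 ± 0.553 in Combo (CPM, SD). That of Pdgfrb to Acta2 was 1.67 ± 0.415 in Vehicle, 0.66 ± 0.974 in PI3Ki, 2.04 ± 0.23 in SHP2i and 3.53 ± 0.829 in Combo, with PI3Ki on the other side of Vehicle from Combo, Combo tumors from 2.86 to 4.51 and Vehicle tumors from 1.19 to 2.17. The ratio of Myh11 to Acta2 was -2.85 ± 0.328 in Vehicle, -2.63 ± 0.606 in PI3Ki, -1.59 ± 0.109 in SHP2i and -0.82 ± 0.18 in Combo, and SHP2i and Combo did not overlap Vehicle while PI3Ki did. The 3 pairs were chosen after the values were seen and were not tested.

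Some other pericyte genes were lower in Combo too. Of 15 further pericyte genes, 5 were lower and 0 higher, beside 19.7% and 23.9% of all genes tested. At an unadjusted p under 0.05 (edgeR), 2 were higher. Their median log2 fold change was -0.22 beside 0.02 over all genes. Heyl, a transcription factor induced by Notch in mural cells, fell from 2.55 ± 0.336 CPM in Vehicle to 0.277 ± 0.164 in Combo, by 3.18 on the log2 scale (edgeR, adjusted p = 1.77e-06). Cox4i2, a respiratory chain subunit typical of pericytes, fell from 3.22 ± 0.587 to 0.628 ± 0.273 CPM, by 2.34 (adjusted p = 2.04e-05), and in SHP2i it fell by 1.63 and stood at 1.03 ± 0.244 CPM (adjusted p = 0.00378). Foxs1 and Higd1b fell in Combo by 2.26 and 1.60, and Gja4 by 0.86 (adjusted p = 0.0304), and these 5 genes were at most 4.87 CPM in any tumor. The most abundant of the list, Anpep, did not pass the threshold in any treatment (-0.21 in Combo, adjusted p = 0.591). In SHP2i 1 of the 15 was lower, beside 6.54% of all genes. In PI3Ki 1 was higher, beside 2.69% of all genes. It was the intermediate filament gene Des, from 7.97 ± 2.81 to 119.5 ± 79.4 CPM (log2 3.91, adjusted p = 2.04e-05), which skeletal muscle also makes.

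The other smooth muscle genes split in Combo. Of 17 further genes 15 were tested, and 5 were higher and 5 lower in Combo, with a median of 0.32. Over all genes 23.9% were higher and 19.7% lower. The lower ones were Actg2 by 2.29 (edgeR, adjusted p = 0.00777), Kcnmb1 by 1.24, Tpm2 by 1.13, Myl9, the regulatory light chain, by 0.93 (adjusted p = 0.0254) and Smtn by 0.39. Kcnmb1 had few reads, with means of 0.374 CPM in Vehicle and 0.154 CPM in Combo. The higher ones were Itga8 (0.94), Synpo2 (0.76), Ramp1 (0.74), Mylk (0.73) and Cald1 (0.40), which encodes caldesmon and was the most abundant of the list at 545.5 ± 15.02 CPM in Vehicle and 721.5 ± 92.6 in Combo (adjusted p = 0.00134). In SHP2i, Cald1 (0.41, adjusted p = 0.00863) and Synpo2 (0.63, adjusted p = 0.0308) were higher and 0 were lower, also at an unadjusted p under 0.05. Over all genes 5.05% were called higher and 6.54% lower in SHP2i. In PI3Ki 1 was higher (2.69% of all genes), the tropomyosin gene Tpm2, from 14.8 ± 3.38 to 73.7 ± 26.6 CPM (log2 2.31, adjusted p = 4.38e-05), a gene that skeletal muscle shares.

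**Figure D4:**
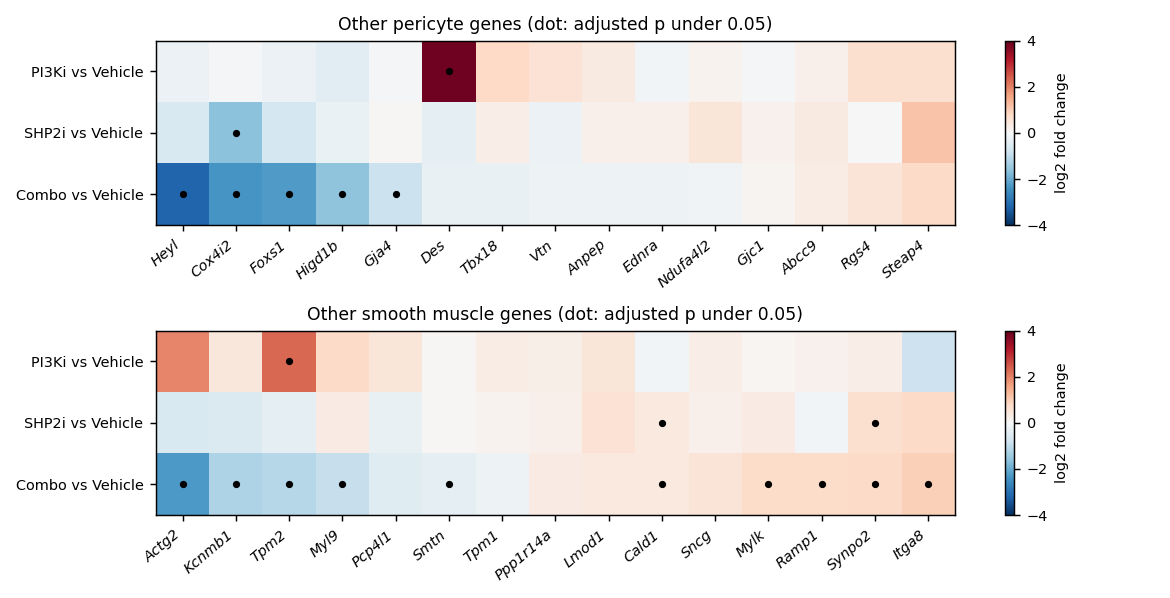
Log2 fold change against Vehicle of 15 further pericyte genes (upper panel) and 15 further smooth muscle genes (lower panel), as a color scale from -4 to 4, with a dot where the adjusted p of edgeR was under 0.05. The Combo row has 5 dots in the upper panel, all on lower genes from Heyl (-3.18) to Gja4 (-0.86), and 10 in the lower panel, 5 on lower and 5 on higher genes. Over all genes tested 19.7% were lower and 23.9% higher in Combo.

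Of the ligands of PDGFRβ, Pdgfb was lower in PI3Ki and Combo and Pdgfd was not called in any treatment, at 4.08 ± 0.399 CPM in Vehicle and 3.88 ± 0.952 in Combo. Among 5 genes of PDGF signalling, 3 were higher and 1 lower in Combo, with a median of 0.83, beside 23.9% and 19.7% of all genes. Pdgfb, which recruits pericytes, fell from 102 ± 8.05 CPM in Vehicle to 67.6 ± 9.50 in PI3Ki and 52.8 ± 6.28 in Combo, by 0.59 and 0.94 on the log2 scale (edgeR, adjusted p = 0.00378 and 3.32e-06), and in SHP2i it differed by 0.06 (adjusted p = 0.758). Pdgfa, whose product acts through PDGFRα, rose from 196 ± 29.8 to 511 ± 97.7 CPM in Combo (1.38, adjusted p = 2.22e-06), Pdgfc rose by 0.83 and Pdgfra, which marks fibroblasts, by 1.66 (adjusted p = 1.26e-05). In SHP2i edgeR called 0 of the 5, with 1 higher at an unadjusted p under 0.05, Pdgfra. Over all genes 5.05% were called higher and 6.54% lower in SHP2i.

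Of 12 further genes of Notch signalling 11 were tested, and in Combo 3 were higher and 6 lower, with a median of -0.81, while Notch3 was higher. Over all genes 23.9% were higher and 19.7% lower. The ligand Dll4, made by endothelial tip cells, fell from 35.7 ± 2.92 CPM in Vehicle to 23.8 ± 4.82 in SHP2i and 13.6 ± 2.62 in Combo, by 0.58 and 1.39 (edgeR, adjusted p = 0.0134 and 9.92e-07). The ligand Jag1 fell by 0.90 in Combo and by 0.49 in PI3Ki (adjusted p = 4.51e-05 and 0.0484), and the targets Hey1, Hes1 and Heyl fell in Combo by 1.25, 0.81 and 3.18. Notch4, an endothelial receptor, fell by 1.33 (adjusted p = 1.82e-05), whereas Notch2 (0.79), Dll1 (0.72) and the effector Rbpj (0.34) were higher. In PI3Ki Jag1 and Jag2 were lower, the latter by 0.47 (adjusted p = 0.0306), and in SHP2i Dll4 was the 1 gene called. Over all genes 2.42% were lower in PI3Ki and 6.54% in SHP2i.

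Among 10 regulators of the contractile program 9 were tested. Tgfb1, the growth factor that induces Acta2 in many cells, fell from 162 ± 4.34 CPM in Vehicle to 103 ± 9.02 in SHP2i and 90.9 ± 6.24 in Combo, by 0.66 and 0.84 on the log2 scale (edgeR, adjusted p = 3.08e-05 and 1.83e-07). Mrtfb, a coactivator of SRF, rose by 0.52 in SHP2i (adjusted p = 0.013) and 0.61 in Combo (adjusted p = 0.000625), and Srf itself fell by 0.27 in Combo (adjusted p = 0.0336). In all, 4 were higher and 3 lower in Combo, beside 23.9% and 19.7% of all genes. In SHP2i 1 was higher and 2 lower, beside 5.05% and 6.54%. In PI3Ki 0 were called, beside 2.69% higher and 2.42% lower, and 1 was higher and 2 lower at an unadjusted p under 0.05. Myocd, the smooth muscle coactivator, was too low to be tested, with group means from 0.0699 to 0.173 CPM.

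Markers of other cell types moved in the same tumors. Skeletal muscle markers were higher in PI3Ki for 18 of 19 genes, beside 2.69% of all genes. Their sums were 1069 to 2412 CPM against 109 to 215 CPM in Vehicle, 110 to 133 in SHP2i and 109 to 190 in Combo. The sum in PI3Ki replicate 2 (2412 CPM) was next to that of replicate 1 (2375 CPM), which had 42.4 CPM of Acta2 and 41.65 CPM of Tagln. The 12 fibroblast markers summed to 15690 CPM in PI3Ki replicate 2, against 4723 to 10470 CPM in the other 3 PI3Ki tumors and 3943 to 6811 CPM in Vehicle. In Combo they summed to 2282 to 5518 CPM, with 2 genes higher (Pdgfra and Dcn) and 4 lower (Col1a1, Col1a2, Lum and Thy1), beside 23.9% and 19.7% of all genes. The 6 myoepithelial markers summed to 14.4 to 36.8 CPM in Combo and 18.1 to 33.0 in Vehicle, with Trp63 higher, and ranged from 6.17 to 36.4 in PI3Ki and from 12.3 to 58.9 in SHP2i, with 0 called by edgeR in either and 0 at an unadjusted p under 0.05. None of these markers was at 0 in all 18 tumors. The part of fibroblast, endothelial, myoepithelial, skeletal muscle and adipocyte RNA in the results for the members was not tested.

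**Figure D5:**
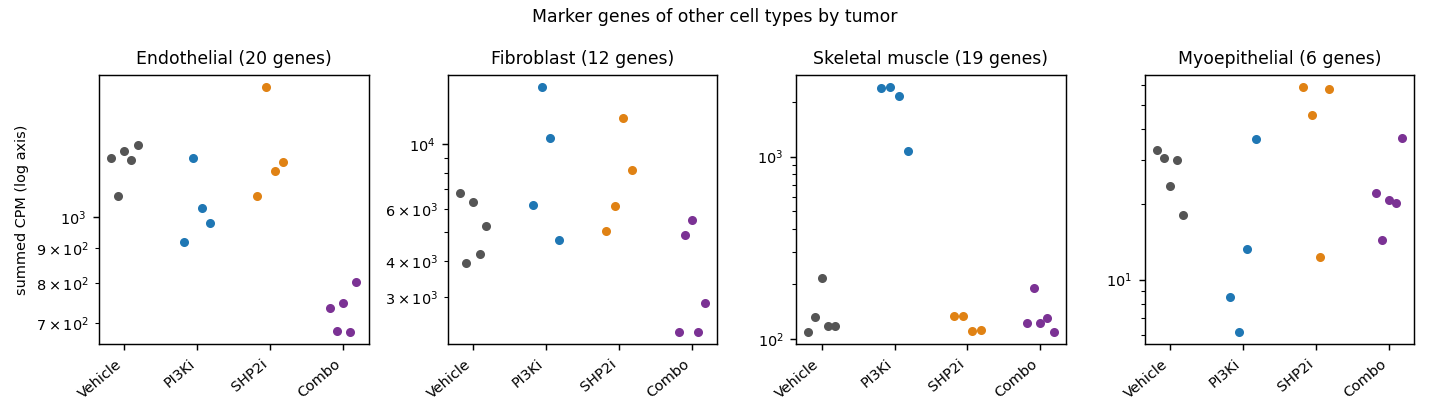
Summed CPM of the marker genes of 4 other cell types in each tumor, on log axes. Endothelial sums in Combo (679.7 to 803 CPM) lie under all Vehicle tumors (1072 to 1272 CPM), skeletal muscle sums stand out in PI3Ki (1069 to 2412 CPM), and the highest fibroblast sum (15690 CPM) is PI3Ki replicate 2.

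The genes whose pattern over all 18 tumors was most like that of each member were found by the root mean square difference of log2 CPM, each gene centred on its own mean, among 12875 genes with a mean log2 CPM over 1. Nearest to Mcam were Rasip1, Cdh5 and Afap1l1 at 0.156, 0.16 and 0.18 log2 units, and Cdh5 encodes VE-cadherin of endothelial junctions. Nearest to Pdgfrb were Garre1 (0.167), Spata13 (0.169) and Slc6a6 (0.178), and to Rgs5 Dach1 (0.177), Rnf144a (0.231) and 6430548M08Rik (0.257). Acta2 had Hmox1 (0.329), Sema3g (0.366) and Myl9 (0.367) as its nearest, Cnn1 Myl9 (0.476), Sema3g (0.494) and Armcx1 (0.504), and Tagln Cpxm2 (0.308), C1qtnf5 (0.309) and Mfrp (0.312). For Myh11 they were Vwf (0.339), 9630028H03Rik (0.363) and Steap4 (0.363), for Kcnj8 Sqor (0.242), Cxcr4 (0.269) and Rftn1 (0.27), for Notch3 C1rb (0.336), Ltk (0.336) and H6pd (0.345), and for Cspg4 Aoc3 (0.378), Acsl1 (0.387) and Efemp1 (0.401). No member was among the 3 genes nearest to another member.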

How the data were processed

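RNA of 18 tumors was grouped by the treatment in the sample labels, 1 library and 1 mouse each. The authors sequenced directional poly(A) libraries in paired-end mode and deposited raw, whole-number gene counts. These came from QuasR (qCount) after adaptor removal (cutadapt) and STAR alignment in 2 passes on GRCm38. Tool versions, the annotation, strand use and pair counting are not given in the sources used here, so reads of overlapping genes cannot be separated. The labels also name hg19, but all identifiers were read as mouse Entrez genes, and 22760 of 22792 had a symbol (the 32 others held 0.0193% of the counts).

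Low genes were removed by filterByExpr (settings 10 for the minimum and 15 for the minimum total), libraries were scaled by TMM, and all tumors entered 1 model of edgeR 4.0.16 in R 4.3.3 (quasi-likelihood F test, common biological coefficient of variation 0.2125). P-values were adjusted by Benjamini-Hochberg over 15282 genes, and the 7 contrasts were each treatment against Vehicle, each pair of treatments and the interaction. Each SE was derived from F and its log2 fold change. The test was tested on simulated data. RPKM used the union of exon bases of GENCODE M21, which also gave strands and overlapping genes. The printed gene coordinates and the promoter windows came from RefSeq. Alternatives were other scaling factors, DESeq2 1.42.0, voom of limma 3.58.1, other filters, a fit of the compared groups alone, the stricter limit of an absolute log2 fold change over 1 that the authors used, a replicate block and each tumor left out.

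The members and gene lists were chosen with earlier results of these data known. Named are all members, the 3 genes nearest to each member, and the actins. For some of the other lists, but not for all, genes with the smallest p against Vehicle or the most abundant gene are named as well. Other list genes that are named were chosen after their values were seen.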

Additional observations from a re-analysis of the deposited data

Results flagged for a closer look

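In 40 sets of values (10 members in 4 groups), the tumor at the end of the range was tested for standing apart by Dixon's ratio (critical value 0.829 for 4 tumors and 0.71 for 5), which chance exceeds in about 1 of 20 sets, and 4 did. Notch3 in SHP2i replicate 2 was 23.0 CPM, under 36.7 to 37.9 CPM in the other 3. Mcam in SHP2i replicate 3 was 153.6 CPM beside 101 to 106 CPM. In PI3Ki replicate 2, Kcnj8 was 10.83 CPM beside 6.24 to 6.79 CPM and Tagln 156.9 CPM beside 41.65 to 59.3 CPM.

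The effect of one inhibitor differed with the presence of the other for 2 members. The interaction on the log2 scale was -0.93 for Mcam (edgeR, adjusted p = 0.00918) and -2.25 for Acta2 (adjusted p = 0.0218), both on the lower side.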

How the results depend on the processing

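Calls were followed here without the stricter limit of an absolute log2 fold change over 1, whose counts are given separately. Of 23 calls of members in the 7 comparisons, 17 stayed past the threshold in every other alternative run, 6 were lost in at least 1, and 0 changed direction. Among 1880 alternative values 30 were newly past the threshold, and 40, at most 0.441 in size, had the other sign without being called. A block for the replicate number left 6 members called for Combo against PI3Ki, with Cnn1 lost (adjusted p = 0.0505), and changed no other call. Tumors with the same number had correlations of -0.42 to 0.326 (median 0.0178), and those with other numbers -0.44 to 0.454 (median -0.00647). Of 18 tumors, 4 correlated best with their own number. No pairing by number was visible in these correlations, and other ties between tumors of 1 number were not tested. No other scaling moved the median of all genes by more than 0.055. Depth limits Cnn1, Cspg4 and Kcnj8 most. The cause of the changes that follow was not tested.

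The count of members called against Vehicle in PI3Ki was 2 with voom and 0 with a log2 fold change over 1. In SHP2i it was 5 with voom, 4 in a fit of the compared groups alone and 4 without 3 tumors that stand apart (Combo replicates 3 and 4 and PI3Ki replicate 2). The stricter limit gave 2 for SHP2i against PI3Ki and 1 for the interaction, for which DESeq2 gave 4. Leaving out each tumor gave 1 to 2 for PI3Ki (2 without PI3Ki replicate 1), 1 to 4 for SHP2i (1 without Vehicle replicate 2 or SHP2i replicate 3, 4 without PI3Ki replicate 2), 2 to 4 for Combo against SHP2i (4 without PI3Ki replicate 2) and 2 to 5 for SHP2i against PI3Ki (2 without SHP2i replicate 3).

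Log2 fold changes that changed sign were all uncalled. Leaving out each tumor, Cspg4 ranged from -0.178 to 0.192 in PI3Ki, -0.075 to 0.361 in SHP2i and -0.165 to 0.682 in Combo against Vehicle, from -0.324 to 0.522 for Combo against SHP2i, -0.143 to 0.694 for Combo against PI3Ki, -0.052 to 0.328 for SHP2i against PI3Ki and -0.302 to 0.533 for the interaction. In PI3Ki against Vehicle, Tagln ranged from -0.109 to 0.687 and Cnn1 from -0.051 to 1.052, and Cnn1 from -0.652 to 0.439 for SHP2i against PI3Ki. For Combo against SHP2i, Pdgfrb ranged from -0.185 to 0.081, Notch3 from -0.145 to 0.174 and Kcnj8 from -0.049 to 0.251. Without the 3 tumors, Tagln (-0.105) and Cnn1 (-0.046) in PI3Ki, Cspg4 (-0.088) and Kcnj8 (-0.223) for Combo against SHP2i and Cnn1 (0.441) for SHP2i against PI3Ki changed sign. With voom, so did Cnn1 in PI3Ki (-0.061) and for SHP2i against PI3Ki (0.266), Myh11 for Combo against PI3Ki (0.045) and Notch3 for Combo against SHP2i (-0.114). Notch3 there was also -0.006 with RLE factors and with DESeq2, -0.019 with upper quartile factors, -0.011 without a filter and -0.054 with the replicate block, and Pdgfrb 0.016 with the replicate block.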
